A study of Mus musculus with 7 samples.

Results

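Oxidative phosphorylation (OXPHOS) genes encoded by the nucleus and by the mitochondrial genome were compared between aged and young splenic regulatory T cells (Tregs). Members were the protein-coding genes whose symbols begin with Nduf, Cox4 to Cox8, Atp5, Uqcr, Sdha, Sdhb, Sdhc or Sdhd, together with every gene of the deposited table whose symbol begins with mt-. This rule found 111 of 25469 genes, of which 94 are nuclear and 17 mitochondrial. The nuclear members comprise 79 subunits and 15 assembly factors or related proteins. The mitochondrial members are 13 protein genes, 2 rRNA genes and 2 tRNA genes. Libraries came from CD4+CD25+ splenocytes of wild-type (WT) mice, purified with magnetic beads. They are 3 biological replicates labelled 18-month old (aged) and 4 labelled 8-week old (young), and the labels do not give the mice per library. The mice were male C57BL/6, and the study's methods give a somewhat older age for the young mice than the labels do. The labels name no treatment, and bulk RNA was sequenced, so the libraries hold whatever other spleen cells the beads retained.

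OXPHOS complexes I to IV pass electrons from NADH and succinate to oxygen, and complexes I, III and IV pump protons across the inner mitochondrial membrane as they do so. Complex V, the ATP synthase, lets these protons flow back and makes ATP. All subunits of complex II are nuclear genes, whereas complexes I, III, IV and V combine nuclear subunits with subunits made inside the mitochondrion. The mitochondrial genome is transcribed from both strands as long precursors that are cut at the tRNAs, and most of its mRNAs are polyadenylated. Tregs are known for their reliance on mitochondrial respiration.

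Several sequences bear on how these genes could be counted, since a read enters the count of a gene only if it is assigned to that gene alone. The first is the stretch at chrM:7907-7989 (GRCm38, plus strand) where the end of mt-Atp8 lies over the start of mt-Atp6. Capitals mark the 43 bases that belong to both genes.
mt-Atp8 end and mt-Atp6 start: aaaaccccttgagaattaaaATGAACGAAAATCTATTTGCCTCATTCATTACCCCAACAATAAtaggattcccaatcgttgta

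The next pair shows why a read from mt-Co2, a core subunit of complex IV, cannot be placed by its sequence. The mitochondrial stretch is chrM:7113-7202 (plus strand), and its nuclear counterpart is the unprocessed pseudogene Gm28661 at chr1:24615376-24615465 (minus strand), both in GRCm38. The 90 bases are the same.
mt-Co2: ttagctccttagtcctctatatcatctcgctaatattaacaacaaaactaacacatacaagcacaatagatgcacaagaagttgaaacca
Gm28661: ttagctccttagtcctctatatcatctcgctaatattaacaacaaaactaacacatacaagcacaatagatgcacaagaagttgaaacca

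The last pair is a contrast from mt-Cytb, the mitochondrial subunit of complex III, at chrM:14245-14334 (plus strand), with the pseudogene Gm11410 at chr4:80004089-80004178 (plus strand). Capitals mark the bases at which they differ. These are T108C, G115A, A132G, T144C, T147A, C165T and T174C, with the mt-Cytb base given first and positions counted from 1 at the first base of mt-Cytb.
mt-Cytb: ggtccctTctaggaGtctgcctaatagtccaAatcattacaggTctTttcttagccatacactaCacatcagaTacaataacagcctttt
Gm11410: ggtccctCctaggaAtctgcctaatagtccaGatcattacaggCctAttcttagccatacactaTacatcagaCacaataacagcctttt

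Libraries held 10734234 to 13649310 gene counts. Of 13904 genes that passed the filter on low counts, 2327 differed with age at an adjusted p under 0.05 (called below), and the median log2 fold change of all of them was 0.02, aged over young. The number called was 1237 without young replicate 4, 1262 without aged replicate 3, 1270 without young replicate 3, 1315 without young replicate 1, 1737 without aged replicate 2, 1988 without young replicate 2 and 3058 without aged replicate 1. The Treg markers checked were present in every library, and their summed level was 2630 to 3202 CPM (counts scaled to library size) in aged and 2126 to 3198 CPM in young Tregs. The 6 markers moved in both directions, with log2 fold changes from -0.61 to 0.86. At an unadjusted p under 0.05 (edgeR), 3 were higher and 2 lower, beside 17.6% and 15.1% of all genes. Aged replicate 1 stood apart in its mitochondrial counts, which took 10.7% of its gene counts, against 5.08% and 5.53% in the other aged libraries and 2.63% to 3.23% in the young ones. Results that rest on it are therefore given with and without it.

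The comparison asks how the transcripts of the 2 genomes stand in aged and young Tregs. Among 13 mitochondrial members tested, 10 were called higher in aged Tregs and 0 lower, with 12 and 0 at an unadjusted p under 0.05 in edgeR's quasi-likelihood test. Among 90 nuclear members tested, 0 were called higher and 1 was called lower, with 1 higher and 9 lower at an unadjusted p under 0.05. Across all genes tested, 9.8% were called higher and 6.94% lower, and at an unadjusted p under 0.05 the shares were 17.6% and 15.1%. In bulk RNA, fewer cells of a type and less RNA per cell cannot be told apart.

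The median log2 fold change was 1.22 over the 10 mitochondrial protein genes tested and -0.02 over the nuclear members. Of the nuclear members, 88 of 90 lay within 0.5 of 0 on the log2 scale, as did 72.6% of all genes tested. All aged libraries lay above all young ones for 2 nuclear members and below them for 10, against 15.5% and 14.4% of all genes. For the mitochondrial members tested the count above was 11 of 13. Of the 111 members, 8 had too few counts for the main test, and these were mt-Nd3, mt-Nd4l, mt-Atp8, mt-Tn, Ndufa4l2, Cox4i2, Cox6a2 and Cox8b.

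**Figure D1:**
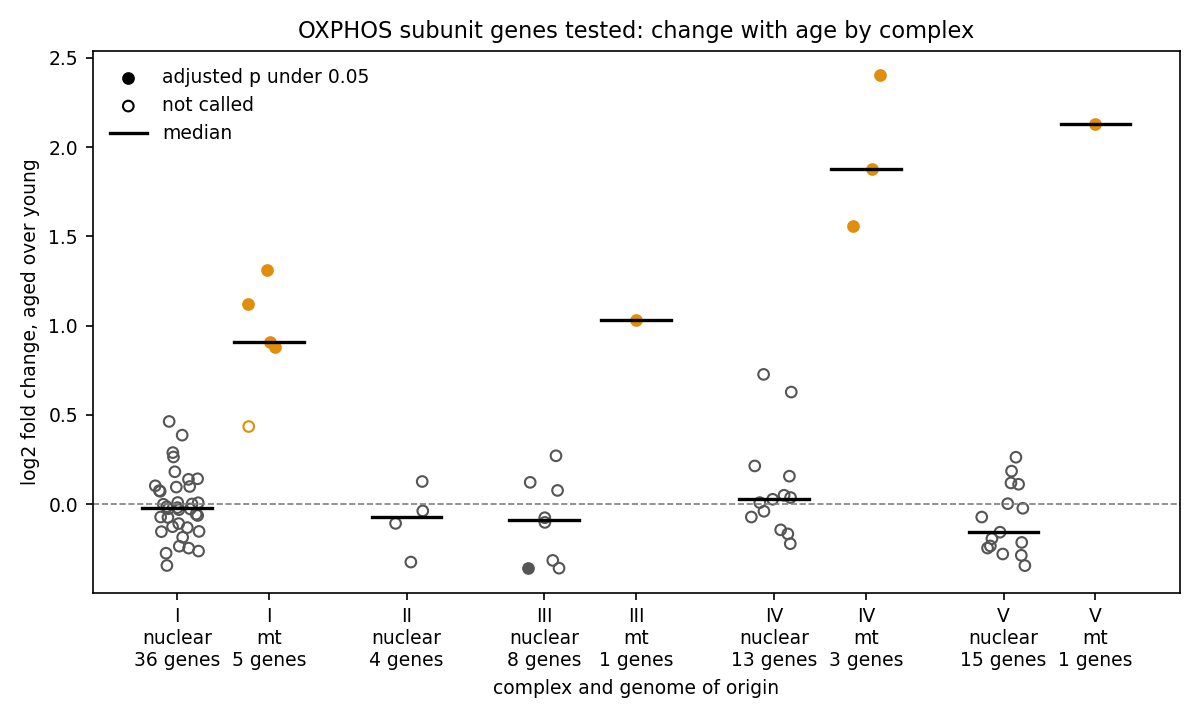
Log2 fold change, aged over young, of each OXPHOS subunit gene tested, by complex and by genome of origin (mt, mitochondrial); filled points were called at an adjusted p under 0.05 and bars are medians. The nuclear medians lie between -0.16 and 0.03, and the mitochondrial ones between 0.91 and 2.13. The mitochondrial medians of complexes IV and V are the values of mt-Co2 and mt-Atp6, which have near-identical nuclear copies.

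By complex, the nuclear subunits of complex I had a median log2 fold change of -0.02 over 36 genes, and the mitochondrial ones 0.91 over 5 genes. In complex III the nuclear median was -0.09 over 8 genes, and mt-Cytb, the only mitochondrial subunit, had 1.03. In complex IV the medians were 0.03 over 13 nuclear genes and 1.88 over 3 mitochondrial genes. In complex V they were -0.16 over 15 nuclear genes and 2.13 for mt-Atp6 alone. Without aged replicate 1 the mitochondrial values were 1.07 for complex I, 1.08 for complex III, 1.53 for complex IV and 1.25 for complex V. mt-Co1, by far the most counted of the complex IV genes, had 1.56, and 0.98 without that library. mt-Co2, mt-Co3 and mt-Atp6 have near-identical nuclear copies, described below. The mitochondrial values of complexes IV and V are therefore uncertain and give no order of complexes. Complex II, which has no mitochondrial subunit, had a median of -0.07 over its 4 genes.

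The mitochondrial subunits of complex I form its proton-pumping membrane arm. mt-Nd1 stood at 4712, 5653 and 6316 CPM in the aged libraries, listed throughout in the order of their replicate numbers, and at 2543, 2740, 2575 and 2372 CPM in the young libraries. Every aged library was above every young one, and the log2 fold change was 1.12 ± 0.15 (SE, n = 3 and 4, adjusted p = 0.00296, edgeR). mt-Nd2 showed the same order, with 2012, 2798 and 3123 CPM in aged and 1279 to 1507 CPM in young libraries (log2 fold change 0.91 ± 0.17 SE, adjusted p = 0.0106, edgeR). mt-Nd4 was the most even of the group, with 3554, 4174 and 3712 CPM in aged and 1471 to 1602 CPM in young Tregs. The log2 fold change of this gene was 1.31 ± 0.13 (SE, adjusted p = 0.00094, edgeR), and it remained called when any 1 library was left out.

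mt-Nd6 is the only protein gene on the opposite strand of the mitochondrial genome. Counting ignored strand, so reads from either strand of this stretch count for it. It measured 780, 933 and 1044 CPM in aged and 437 to 577 CPM in young Tregs, with a log2 fold change of 0.88 ± 0.15 (SE, adjusted p = 0.00635, edgeR). With trends with GC content and length removed, it was 0.55 and the call was lost (adjusted p = 0.0557). mt-Nd5, which lies next to it on the other strand, measured 3021, 2511 and 3069 CPM in aged and 1957 to 2299 CPM in young libraries. The groups did not overlap, yet its log2 fold change of 0.43 ± 0.14 (SE) missed the threshold (adjusted p = 0.0669, edgeR), and it was called by DESeq2 (adjusted p = 0.00709) and limma voom (adjusted p = 0.0304). As a share of all counts on mitochondrial protein genes, mt-Nd5 made up 3.32%, 4.58% and 5.70% in aged and 7.20% to 8.91% in young libraries, so that its share was lower in every aged library. mt-Nd3 and mt-Nd4l had 18 counts or fewer in each library, too few for the main test, and were not called in the alternatives that tested them, with adjusted p of 0.0899 to 0.299.

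mt-Cytb, the cytochrome b subunit through which complex III oxidises ubiquinol, showed a narrow spread in both groups. It measured 8931, 10149 and 10027 CPM in aged Tregs and 4489, 5224, 4906 and 4373 CPM in young Tregs. The aged libraries were all higher, by a log2 fold change of 1.03 ± 0.16 (SE, adjusted p = 0.00435, edgeR), which stayed between 0.99 and 1.08 over the fits without 1 library. Per kb of exon, the mean level was 8481 CPM in aged and 4150 CPM in young Tregs.

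The 3 mitochondrial subunits of complex IV, cytochrome c oxidase, form its catalytic core. mt-Co1, which carries the haem groups at which oxygen is reduced, measured 67622, 28536 and 26427 CPM in aged libraries and 12845, 16152, 14613 and 11957 CPM in young ones. All aged libraries were above all young ones, and aged replicate 1 was far above the others. The log2 fold change was 1.56 ± 0.35 (SE, adjusted p = 0.0207, edgeR), and it was 0.98 without aged replicate 1 (adjusted p = 0.0203). The call was lost without young replicate 1 (adjusted p = 0.0583), young replicate 3 (adjusted p = 0.0585) or young replicate 4 (adjusted p = 0.0685), and with replicate 1 of both ages left out (log2 fold change 0.94, adjusted p = 0.0531). The last of these settings was chosen after the data were seen.

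In aged replicate 1, mt-Co1 took 74.4% of the counts on mitochondrial protein genes, against 49.1% to 54.2% in the other 6 libraries. The ratio of mt-Co1 to mt-Cytb counts was 7.57 there, 2.81 and 2.64 in the other aged libraries and 2.73 to 3.09 in young libraries. Without that library, then, the ratios of the aged Tregs were within or just below the young range. The cause of its excess was not tested.

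mt-Co2, which receives electrons from cytochrome c, had far fewer counts, with 77.1, 43.1 and 42.7 CPM in aged and 12.95 to 17.03 CPM in young Tregs. The log2 fold change of this gene was 1.88 ± 0.22 (SE, adjusted p = 0.00163, edgeR). mt-Co3 measured 110, 27.1 and 42.7 CPM in aged and 7.81 to 18.4 CPM in young Tregs (log2 fold change 2.40 ± 0.48 SE, adjusted p = 0.0134, edgeR). Neither gene's groups overlapped. Without aged replicate 1 the log2 fold changes were 1.53 and 1.62, and both remained called.

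The mitochondrial subunits of complex V belong to its membrane part. mt-Atp6, the subunit along which protons cross, measured 54.3, 13.4 and 17.5 CPM in aged and 5.61 to 8.22 CPM in young Tregs. The log2 fold change of this gene was 2.13 ± 0.45 (SE, adjusted p = 0.0163, edgeR), with 1.25 without aged replicate 1, and the call was lost without young replicate 3 (adjusted p = 0.052). mt-Atp8 had 21, 3 and 13 counts in aged and 1 to 3 counts in young libraries, too few for the main test. DESeq2 gave a log2 fold change of 3.05 (adjusted p = 0.0107) and edgeR without a filter 2.96 (adjusted p = 0.017). The fit without aged replicate 2, which its counts in the other aged libraries let it enter, gave 3.42 and is no separate support.

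The rRNAs of the mitochondrial ribosome varied more between libraries of the same age. mt-Rnr1, the small-subunit rRNA, measured 4778, 1060 and 622 CPM in aged and 1030, 289, 432 and 365 CPM in young Tregs, and the groups overlapped. mt-Rnr2, the large-subunit rRNA, measured 7159, 1594 and 1109 CPM in aged and 2176, 779, 1003 and 902 CPM in young Tregs, with overlap as well. Replicate 1 was the highest library within each age group for both rRNAs. Their log2 fold changes, 2.02 ± 0.70 (SE, adjusted p = 0.0841) and 1.44 ± 0.64 (SE, adjusted p = 0.158, edgeR), did not pass the test, and without aged replicate 1 they were 0.66 and 0.15. mt-Rnr1 was called without a filter (adjusted p = 0.0402, edgeR) and was not called without aged replicate 1 (adjusted p = 0.371, edgeR). With replicate 1 of both ages left out, its log2 fold change was 1.21 and it was called (adjusted p = 0.0339, edgeR). That setting was chosen after the data were seen and drops the highest library of each age, so it is no separate support.

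The ratio of mt-Rnr1 to mt-Rnr2 was steadier than either level. It was 0.667, 0.665 and 0.561 in aged and 0.473, 0.371, 0.431 and 0.405 in young libraries, without overlap. mt-Tp, the tRNA for proline (chrM:15356-15422, minus strand), was the other mitochondrial RNA gene with enough counts and was named after its values were seen. As for mt-Nd6, reads from either strand of the stretch count for this gene, and whether they come from the tRNA itself was not tested. mt-Tp measured 97.6, 34.2 and 38.1 CPM in aged and 17.8 to 22.9 CPM in young Tregs (log2 fold change 1.44 ± 0.34 SE, adjusted p = 0.0244, edgeR), with 0.78 without aged replicate 1. Its call was lost without young replicate 1, 3 or 4, with adjusted p of 0.069, 0.0601 and 0.0671, and with GC content and length trends removed (log2 fold change 0.85, adjusted p = 0.0777). mt-Tn had 1 count in aged replicate 1, and the other 20 of the 22 tRNA genes annotated on the mitochondrial chromosome had 0 counts in all 7 libraries.

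**Figure D2:**
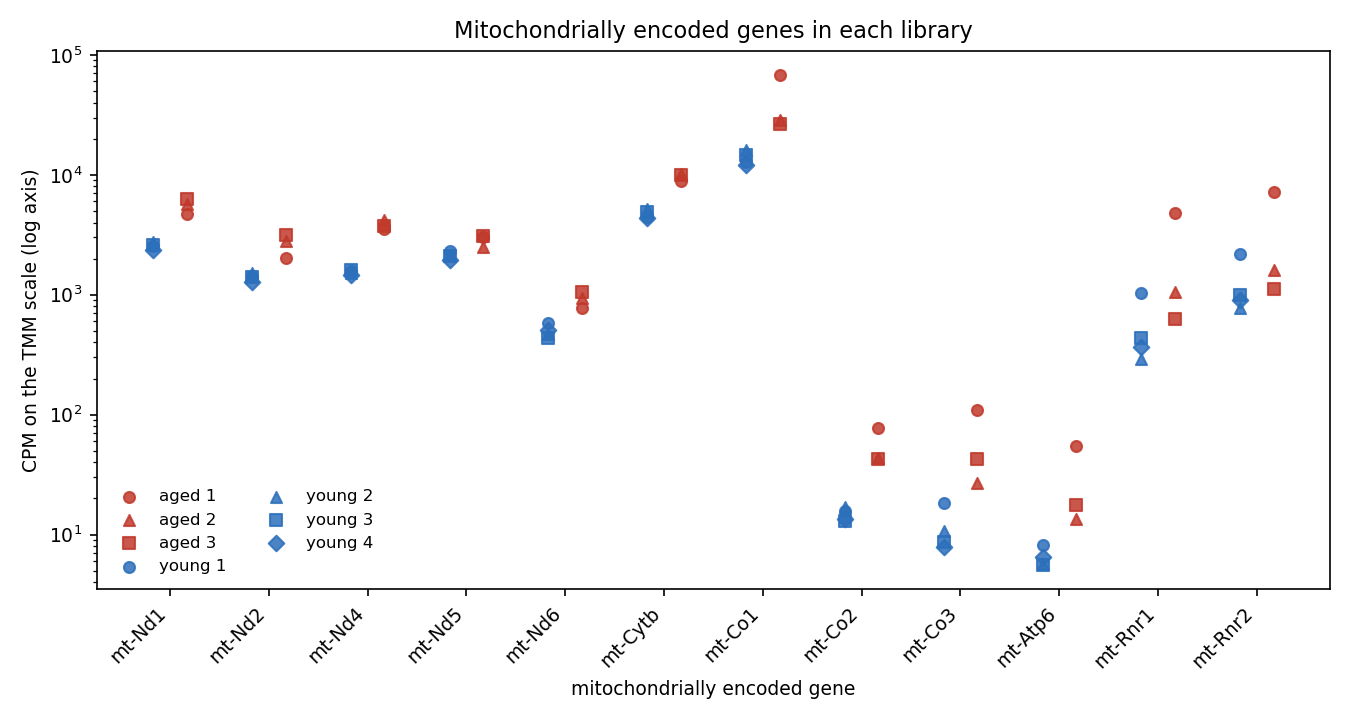
Level of 12 mitochondrially encoded genes in each library, in CPM on the TMM scale (log axis); marker shapes give the replicate number. The aged points lie above the young ones for the 10 protein genes, with mt-Co1 in aged replicate 1 at 67622 CPM, and the groups overlap for mt-Rnr1 and mt-Rnr2.

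The low levels of some mitochondrial mRNAs went together with copies of their sequence in the nuclear genome. In GENCODE M21, 7 pseudogenes on chromosome 1 match mt-Co1 (its last 483 bases), mt-Co2, mt-Atp6, mt-Co3, mt-Nd3, mt-Nd4l and mt-Nd4 (its first 876 bases) in the order of the mitochondrial genome. Their aligned parts lie within chr1:24611535-24616188, the counterpart of chrM:6390-11042, with an identity of 99.7% to 100% over the aligned lengths. Positions run in step in both genomes but for a shift of 1 base between mt-Nd3 and mt-Nd4l. To express this per gene, the share of 75-base windows also found in an annotated copy was computed.

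That share was 99.5% for mt-Co2, 99.9% for mt-Co3, 99.5% for mt-Atp6, 97.8% for mt-Nd3 and 98.7% for mt-Nd4l. The mean levels of these genes per kb of exon in young Tregs were 21.6, 14.5, 9.55, 1.32 and 1.31 CPM. In contrast, mt-Cytb, mt-Nd1 and mt-Nd6 shared no window, and stood at 4150, 2672 and 961 CPM per kb in young Tregs. mt-Co1, with 39.8% of windows shared, had the highest level per kb, 8991 CPM, and mt-Nd4, with 61.5%, had 1116 CPM. An exception was mt-Atp8, at 0.656 CPM per kb with no shared window. It lies between mt-Co2 and mt-Atp6, and the part of chromosome 1 between their copies has no annotated transcript to compare.

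**Figure D3:**
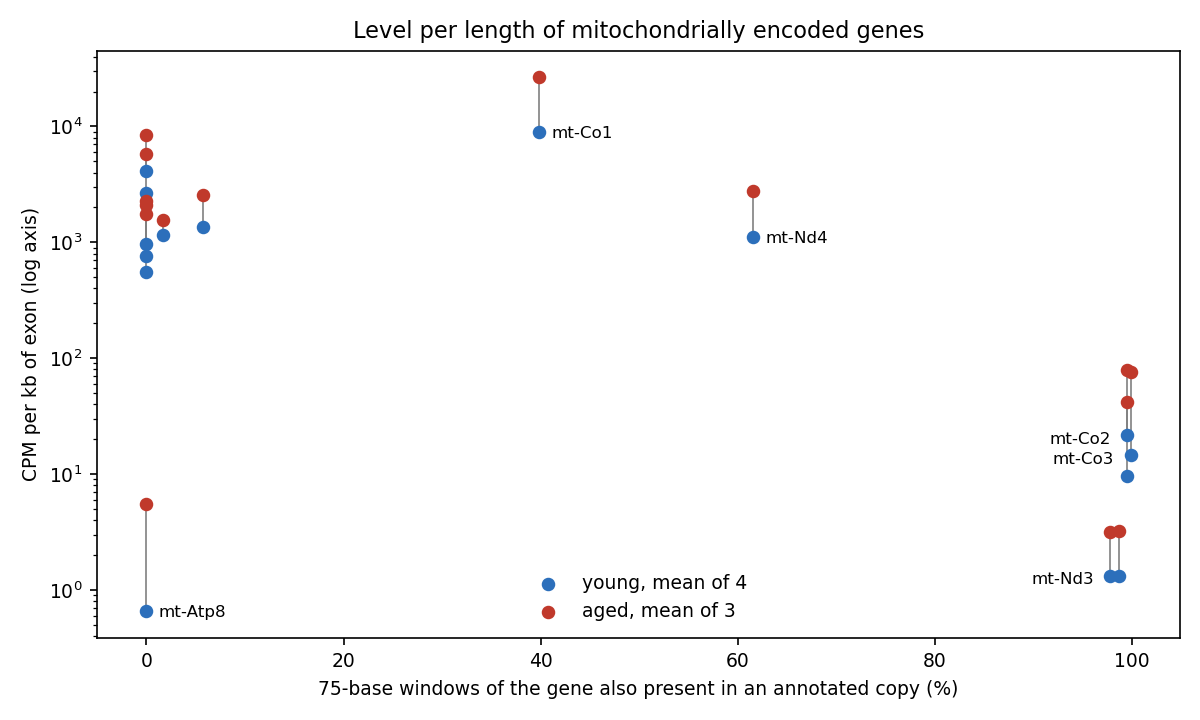
Mean level of 15 mitochondrially encoded genes per kb of exon (CPM, log axis) against the percentage of their 75-base windows present in an annotated copy elsewhere; lines join the young and aged means of a gene. Genes with over 95% of windows shared lie under 80 CPM per kb in both groups, and mt-Atp8 is low with no window shared.

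The chromosome 1 copies were themselves counted, at mean levels above those of mt-Co2, mt-Co3, mt-Atp6, mt-Nd3 and mt-Nd4l for the copies of these genes and far below mt-Co1 and mt-Nd4 for the copies of their parts. In young Tregs, Gm10925 stood at 20.5 CPM against 6.51 CPM for mt-Atp6, and Gm28661 at 19.7 CPM against 14.8 CPM for mt-Co2. The means were 19.6 CPM for Gm29216 against 13892 CPM for mt-Co1, and 7.07 CPM for Gm28439 against 1538 CPM for mt-Nd4. Gm28661, the copy of mt-Co2, measured 127, 69.7 and 70.7 CPM in aged and 16.0 to 25.7 CPM in young Tregs. The copy had a log2 fold change of 2.18 ± 0.25 (SE, adjusted p = 0.0014, edgeR), beside 1.88 for mt-Co2. Summed over the 7 copies, aged libraries held 604, 278 and 282 CPM and young libraries 80.0 to 108 CPM, without overlap. Counts of mt-Co2, mt-Co3 and mt-Atp6 and of their copies cannot be told apart by sequence, so the levels and fold changes of these genes are uncertain. Among the other genes, mt-Nd2 shared 5.7% and mt-Nd5 1.66% of windows. The median log2 fold change was 2.13 for the 3 tested genes with over 95% of windows shared and 0.97 for the 6 with under 50%. Without aged replicate 1 these medians were 1.53 and 1.03.

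Within a library, the summed counts of mitochondrial and nuclear subunits of a complex can be compared without any scaling between libraries. For complex I this ratio was 9.16, 9.37 and 9.55 in aged and 5.53, 4.45, 4.68 and 4.68 in young Tregs. For complex III it was 14.2, 14.6 and 14.0 in aged and 6.96, 6.25, 6.40 and 6.04 in young Tregs. Both ratios separated the ages with little spread, and here aged replicate 1 was like the other aged libraries. For complex IV the ratio was 78.0, 29.4 and 25.3 in aged and 12.6 to 15.7 in young Tregs, and aged replicate 1 was again far above.

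For complex V the ratio was 0.0218, 0.00504 and 0.00666 in aged and 0.00176 to 0.00307 in young Tregs, where mt-Atp6 and mt-Atp8 together summed to only 5.69 to 56.1 CPM over all libraries. The sums behind the ratios differed by complex. For complex I, the sum over mitochondrial subunits was 15806 ± 1610 CPM (SD, n = 3) for aged libraries, against 8125 ± 384 CPM (SD, n = 4) for the young. The sums over nuclear subunits were 1687 ± 138 CPM and 1690 ± 154 CPM for the same libraries. For complexes III and V, nuclear sums were 680 ± 46.4 CPM and 2699 ± 122 CPM for aged libraries, against 743 ± 79.7 CPM and 3016 ± 258 CPM for the young, which is 0.915 and 0.895 times the young mean, while the mitochondrial sums were 2.04 and 4.44 times the young mean. Without aged replicate 1 the latter were 2.12 and 2.44 times the young mean. The complex V sum rests on few counts, mostly of mt-Atp6, which cannot be told apart from its copy by sequence. For complex IV, nuclear sums were 964 ± 90.5 CPM for aged and 988 ± 132 CPM for young libraries (SD). The mitochondrial sum of complex IV was 2.94 times the young mean, and 1.98 times without aged replicate 1.

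**Figure D4:**
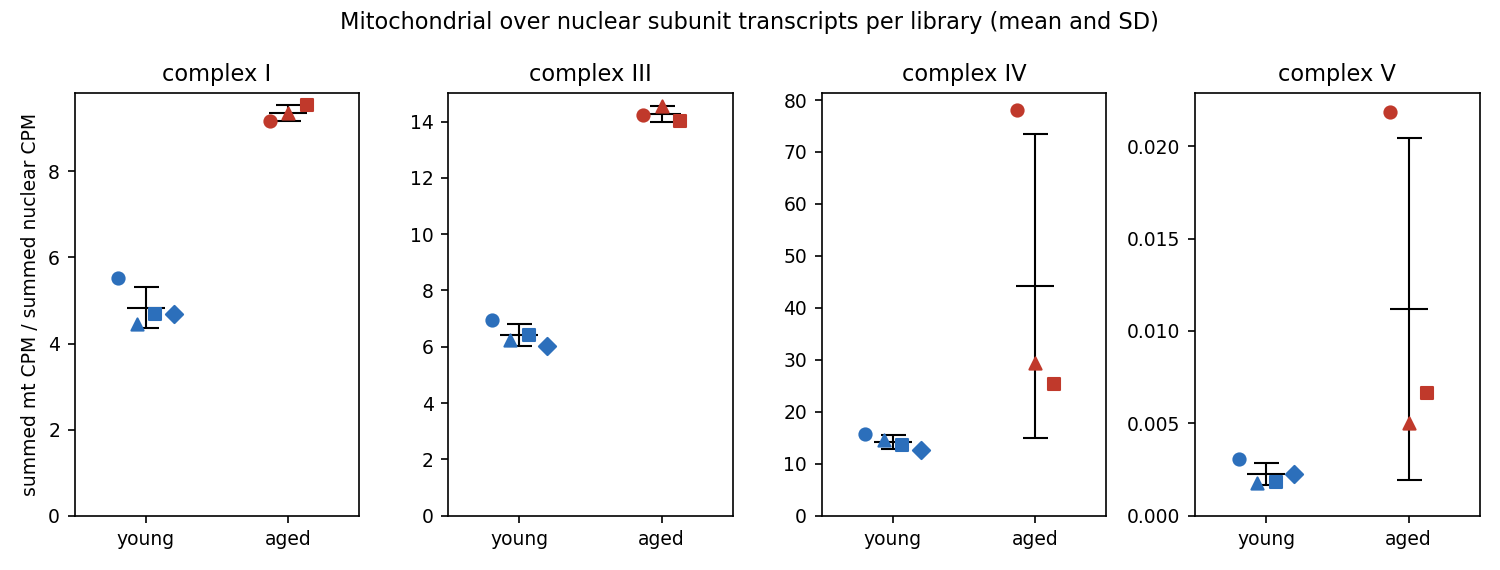
Summed CPM of the mitochondrial subunits over summed CPM of the nuclear subunits, for each library and complex with subunits from both genomes; points are libraries (shapes give the replicate number), and bars are the mean and SD. Complex I aged libraries lie at 9.16 to 9.55 and young ones at 4.45 to 5.53, and in complexes IV and V aged replicate 1 lies far above the rest.

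Among the nuclear subunits of complex I, 0 of 36 were called by edgeR, with 1 higher and 1 lower at an unadjusted p under 0.05. Ndufv2, an iron-sulfur subunit of the NADH-oxidising tip, came nearest and was named after its values were seen. It measured 79.6, 88.6 and 104.9 CPM in aged and 64.1, 75.2, 71.9 and 67.4 CPM in young Tregs, without overlap. Its log2 fold change was 0.39 ± 0.11 (SE, adjusted p = 0.0503, edgeR), and it was called with RLE normalization (adjusted p = 0.0488), with at least 10 counts in every library (adjusted p = 0.0463), with GC content and length trends removed (adjusted p = 0.0455), without aged replicate 1 (adjusted p = 0.021) and by DESeq2. Ndufb8, a membrane-arm subunit also named after its values were seen, measured 24.5, 22.4 and 22.0 CPM in aged and 25.7 to 31.4 CPM in young Tregs (log2 fold change -0.34 ± 0.11 SE, adjusted p = 0.0718, edgeR), and was called with GC content and length trends removed (adjusted p = 0.0495).

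By part of complex I, the 9 genes of the NADH-oxidising module had a median log2 fold change of 0.10 and the 7 genes of the ubiquinone-reducing module -0.03. The subunit with the highest level per kb, Ndufb11, measured 71.1 to 93.9 CPM in aged and 76.3 to 95.02 CPM in young Tregs, and the groups overlapped (log2 fold change -0.07 ± 0.12 SE, adjusted p = 0.718, edgeR). The summed nuclear complex I transcripts thus differed between the ages by far less than between replicates.

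Complex II, succinate dehydrogenase, links the citric acid cycle to the electron chain, and 0 of its 4 subunit genes were called, with 0 higher and 1 lower at an unadjusted p under 0.05 in edgeR's test. Sdhd, a membrane anchor with the highest level per kb of them, measured 81.6, 79.0 and 96.9 CPM in aged and 66.1 to 86.5 CPM in young Tregs, and the groups overlapped (log2 fold change 0.13 ± 0.12 SE, adjusted p = 0.51, edgeR). Sdhb, the iron-sulfur subunit, named after its values were seen, measured 83.5, 68.2 and 77.0 CPM in aged and 80.2 to 110.4 CPM in young Tregs (log2 fold change -0.32 ± 0.13 SE, adjusted p = 0.112, edgeR). It was called without replicate 1 of both ages (adjusted p = 0.0467, edgeR), a setting chosen after the data were seen.

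Complex III held the only nuclear member that was called. Uqcrc1, a core protein of the complex (ENSMUSG00000025651, chr9:108936633-108949623, plus strand in GENCODE M21), measured 131.7, 131.9 and 118.8 CPM in aged and 152.6, 177.3, 161.1 and 161.2 CPM in young Tregs. All aged libraries were below all young ones, and the log2 fold change was -0.36 ± 0.09 (SE, adjusted p = 0.036, edgeR). The call was kept without aged replicate 1 and lost when any other library was left out, with adjusted p up to 0.121, while the log2 fold change stayed between -0.38 and -0.31. It was called in 8 of all 18 alternatives.

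The other core protein, Uqcrc2, and the iron-sulfur protein Uqcrfs1 had values of the same size, and both were named after their values were seen. Uqcrc2 measured 120.9, 94.96 and 98.8 CPM in aged and 124.9 to 149.9 CPM in young Tregs, without overlap (log2 fold change -0.36 ± 0.12 SE, adjusted p = 0.0677, edgeR). It was called by DESeq2 (adjusted p = 0.0329), with GC content and length trends removed (adjusted p = 0.0389) and without aged replicate 1 (adjusted p = 0.0183). It was also called without replicate 1 of both ages (adjusted p = 0.0322, edgeR), a setting chosen after the data were seen. Annotated exons of another gene cover 19.7% of its exons. Uqcrfs1 measured 65.4, 52.5 and 66.0 CPM in aged and 62.1 to 86.4 CPM in young Tregs, with overlap (log2 fold change -0.32 ± 0.14 SE, adjusted p = 0.149, edgeR). Cyc1, the cytochrome c1 subunit of the same complex, measured 71.6 to 77.1 CPM in aged and 75.2 to 85.6 CPM in young Tregs (log2 fold change -0.11 ± 0.08 SE, adjusted p = 0.383, edgeR).

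The 5 small subunits of complex III had a median log2 fold change of 0.08. Uqcrh, the hinge protein and the gene with the highest level per kb in the complex, measured 147.6, 237.0 and 242.6 CPM in aged and 161.5 to 229.9 CPM in young Tregs. Aged replicate 1 was the lowest of the 7 libraries and the other aged libraries were the highest (log2 fold change 0.08 ± 0.19 SE, adjusted p = 0.826, edgeR).

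Complex IV has subunits with alternative isoforms, of which some are typical of heart and muscle. Each common isoform had higher counts than its tissue isoform. Cox4i1 measured 152.3, 199.9 and 214.7 CPM in aged and 183.9 to 233.9 CPM in young Tregs (log2 fold change -0.17 ± 0.14 SE, adjusted p = 0.457, edgeR), whereas Cox4i2 had at most 7 counts in a library. Cox6a1 measured 68.1 to 84.99 CPM in aged and 82.1 to 95.7 CPM in young Tregs (log2 fold change -0.22 ± 0.11 SE, adjusted p = 0.201, edgeR), and its muscle isoform Cox6a2 had 17 counts or fewer. Cox7a2 measured 61.9 to 73.6 CPM in aged and 53.5 to 85.6 CPM in young Tregs, and the muscle isoform Cox7a1 0.604 to 1.05 CPM and 0.358 to 0.79 CPM.

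Cox8a, the common isoform of the smallest subunit, was higher in every aged library, with 73.5, 74.3 and 82.3 CPM against 66.3 to 73.4 CPM, and missed the threshold (log2 fold change 0.16 ± 0.09 SE, adjusted p = 0.243, edgeR). Its muscle isoform Cox8b had 2 counts in aged replicate 1 and 0 counts in the other libraries. Cox6b1 measured 101.8 to 123.4 CPM in aged and 92.8 to 124.2 CPM in young Tregs, and Cox6b2, known from testis, 4.02 to 6.85 CPM and 1.68 to 4.98 CPM. Ndufa4, a subunit long assigned to complex I, measured 71.3 to 99.8 CPM in aged and 66.2 to 103.8 CPM in young Tregs, and its paralogue Ndufa4l2 had 4 counts or fewer. Of the 13 nuclear complex IV subunits tested, 0 were called and 0 had an unadjusted p under 0.05 in edgeR's test.

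Cox7a2l, which helps join complexes III and IV into supercomplexes, had the highest level per kb among the nuclear genes grouped with complex IV. It measured 210.2, 252.6 and 266.5 CPM in aged and 288.3, 376.5, 290.2 and 295.8 CPM in young Tregs, without overlap. Its log2 fold change of -0.36 ± 0.14 (SE) did not pass the test (adjusted p = 0.108, edgeR), and passed by DESeq2 (adjusted p = 0.045) and with GC content and length trends removed (adjusted p = 0.0292).

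In complex V, the 5 genes of the catalytic F1 part all had negative log2 fold changes, with a median of -0.25, and 0 were called, with 0 higher and 2 lower at an unadjusted p under 0.05 in edgeR's test. Atp5a1, the alpha subunit and the gene with the highest level per kb of the complex, measured 567.5, 530.1 and 561.2 CPM in aged and 655.8, 778.9, 697.7 and 676.7 CPM in young Tregs. All aged libraries were below all young ones (log2 fold change -0.34 ± 0.11 SE, adjusted p = 0.0673, edgeR), with a call by DESeq2 (adjusted p = 0.00516) and limma voom (adjusted p = 0.0374). Atp5b, the catalytic beta subunit, named after its values were seen, measured 655.8, 672.1 and 614.2 CPM in aged and 724.7 to 805.2 CPM in young Tregs, again without overlap (log2 fold change -0.25 ± 0.11 SE, adjusted p = 0.147, edgeR), with a call by DESeq2 (adjusted p = 0.0317). The 10 genes of the membrane part and the stalks had a median of -0.01.

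**Figure D5:**
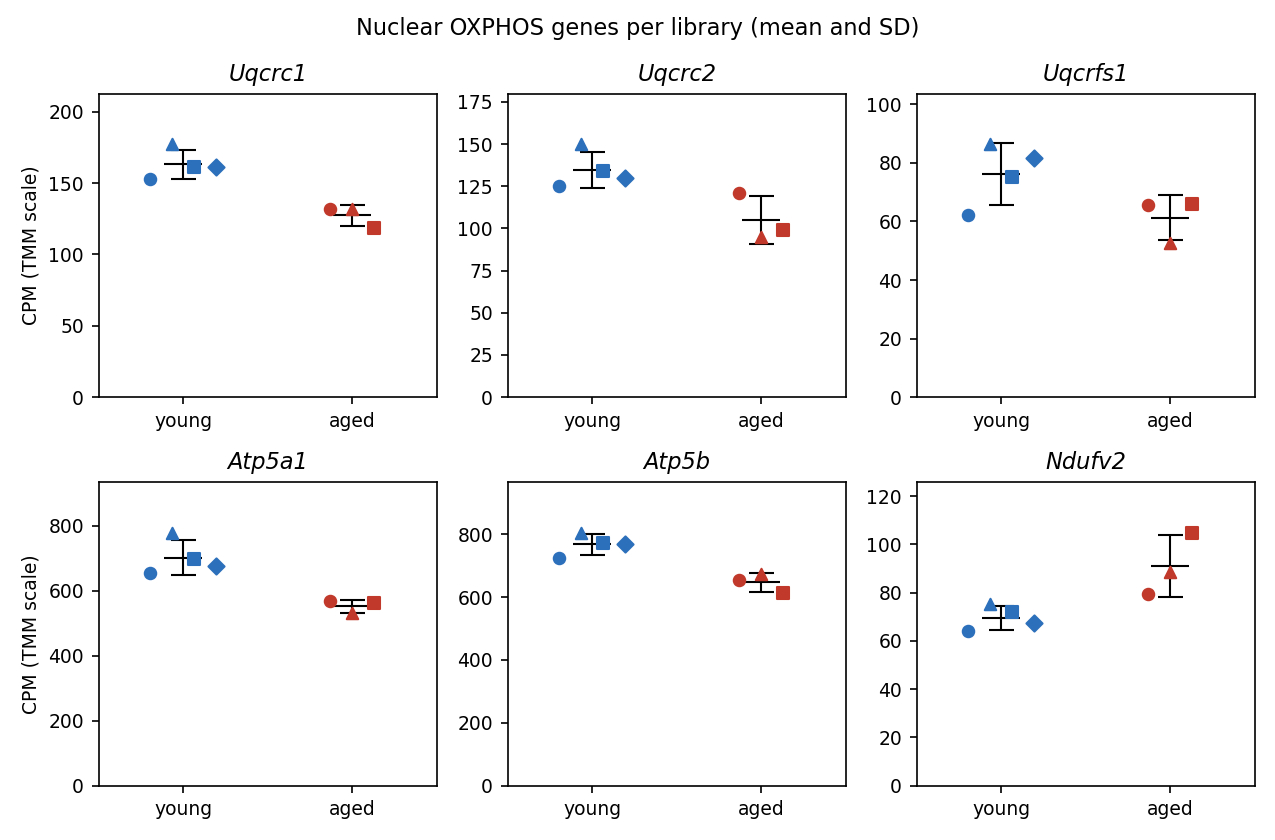
CPM of 6 nuclear OXPHOS genes in each library, with axes from 0; points are libraries (shapes give the replicate number), and bars are the mean and SD. Of these only Uqcrc1 was called, at 118.8 to 131.9 CPM in aged and 152.6 to 177.3 CPM in young Tregs.

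The 15 assembly factors and related genes, which help build the complexes, had a median log2 fold change of 0.03 over the 14 tested, and 0 were called, with 0 higher and 1 lower at an unadjusted p under 0.05 in edgeR's test. Of 91 nuclear members with an adjusted p from DESeq2, 1 was called higher and 5 lower, beside 9.37% and 8.22% of all genes. By limma voom 0 and 2 of 90 were called, beside 9.39% and 7.03%. With GC content and length trends removed the counts were 1 and 7 of 90, beside 10.9% and 7.54%. By DESeq2 and with trends removed, the members called lower had log2 fold changes between -0.42 and -0.27.

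The choice of members did not use their promoters. Promoter windows, from 250 bases before to 50 bases after the start of a RefSeq gene (GRCm38.p6), were matched for 79 of the 94 nuclear members and searched on both strands. The core of the nuclear respiratory factor NRF1 (GCATGCGC) was found in 12 of them (15.2%), against 3.94% of the windows of protein-coding genes. The ETS core bound by GABPA (CCGGAAG) was found in 20 (25.3%, against 12.9%), and the YY1 core (AAGATGGC) in 11 (13.9%, against 3.57%). A match is a stretch of letters and not a site shown to be bound. Uqcrc1 holds the NRF1 core on both strands, in overlapping matches that lie 31 to 40 bases after its RefSeq start. The stretch shown is chr9:108936668-108936697 (plus strand), with the matched bases in capitals.
Uqcrc1: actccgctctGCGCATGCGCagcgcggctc

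Genes of the wider OXPHOS pathway were examined as lists. Among assembly factors and cytochrome c genes outside the rule, 3 of 31 tested were called higher and 0 lower, beside the 9.8% and 6.94% of all genes. Cox17, a copper chaperone for complex IV, measured 5.33, 13.49 and 13.57 CPM in aged and 2.87 to 3.85 CPM in young Tregs (log2 fold change 1.64 ± 0.32 SE, adjusted p = 0.0126, edgeR). Tmem126b, an assembly factor of complex I, measured 17.5, 20.3 and 23.0 CPM in aged and 13.7 to 14.6 CPM in young Tregs (log2 fold change 0.52 ± 0.13 SE, adjusted p = 0.0276, edgeR). Cox18, which inserts the tail of the mt-Co2 protein into the membrane, measured 14.6, 15.7 and 17.03 CPM in aged and 9.53 to 12.6 CPM in young Tregs (log2 fold change 0.49 ± 0.14 SE, adjusted p = 0.046, edgeR).

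The groups did not overlap for any of these 3 genes. Leaving out each library in turn, Cox17 was called in 7 of 7 fits, and Cox18 and Tmem126b in 2 of 7 each. Cycs, the electron carrier cytochrome c, measured 35.4 to 48.8 CPM in aged and 39.9 to 57.7 CPM in young Tregs and was not called (log2 fold change -0.25 ± 0.16 SE, adjusted p = 0.329, edgeR).

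Among 18 genes that maintain or transcribe mitochondrial DNA, 1 was called higher and 1 lower, beside 9.8% and 6.94% of all genes. Tk2, the mitochondrial thymidine kinase, measured 75.5, 88.6 and 100.3 CPM in aged and 58.5 to 68.4 CPM in young Tregs (log2 fold change 0.45 ± 0.11 SE, adjusted p = 0.0289, edgeR). Rrm2b, a ribonucleotide reductase subunit, was lower with 24.6, 20.7 and 24.2 CPM against 29.1 to 34.5 CPM (log2 fold change -0.43 ± 0.11 SE, adjusted p = 0.0358, edgeR). Both supply deoxynucleotides. Without 1 library at a time, Tk2 was called in 2 of 7 fits and Rrm2b in 1 of 7, with adjusted p up to 0.0968 and 0.0899.

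Of 19 genes of mitochondrial RNA processing and stability, 0 were called, with 2 higher and 3 lower at an unadjusted p under 0.05 in edgeR's test. At that level 17.6% of all genes were higher and 15.1% lower. Of 13 genes of the outer membrane and protein import, 0 were called, with 0 higher and 2 lower at that level. Of 11 transcriptional regulators of OXPHOS genes tested, 1 was called lower, beside 6.94% of all genes. At an unadjusted p under 0.05 in edgeR's test, 0 were higher and 4 lower. The summed level of the regulators was 541 to 591 CPM in aged and 625 to 652 CPM in young Tregs. The gene called was Yy1, with 64.3, 61.5 and 66.7 CPM in aged and 75.5 to 85.8 CPM in young Tregs (log2 fold change -0.34 ± 0.08 SE, adjusted p = 0.0288, edgeR). It was called in 2 of 7 fits that left out a library. The medians of the 5 lists, in the order given here, were -0.04, 0.01, -0.11, -0.15 and -0.02, beside 0.02 for all genes. In the same order, the lists before the regulators summed to 686 to 713, 550 to 575, 607.2 to 655.58 and 1348 to 1551 CPM in aged Tregs. In young Tregs they summed to 660 to 752, 541 to 571, 655.63 to 716.9 and 1464 to 1773 CPM. The ages overlapped in these sums except for RNA processing, where they nearly touched.

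Markers of other spleen cells were present, and their part in the mitochondrial differences was not tested. For the marker counts given here and in the next paragraph, the shares of all genes called were 9.8% higher and 6.94% lower. All 8 neutrophil markers had positive log2 fold changes and 3 were called, with sums of 5275, 1873 and 671 CPM in aged and 259 to 933 CPM in young Tregs, so that aged replicate 1 was also the highest here. Of 6 plasma cell markers 2 were called higher, with sums of 2730 to 3445 CPM in aged and 273 to 2120 CPM in young Tregs. Of 9 erythroid markers 0 were called, and their sums of 13427 to 164968 CPM in aged and 12912 to 122727 CPM in young Tregs overlapped. No marker of these lists was at 0 in all libraries.

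For the other lists, 1 of 6 Treg, 1 of 6 dendritic cell and 1 of 4 platelet markers tested were called higher, and 3 of 9 macrophage, 2 of 6 dendritic cell and 1 of 4 NK cell markers lower. Of 7 B cell and 2 CD8 T cell markers 0 were called. Sums were 7681 to 12498 CPM in aged and 5230 to 14919 CPM in young Tregs for B cell markers, and 410 to 559 CPM and 524 to 615 CPM for macrophage markers. For platelet markers they were 20.2 to 39.5 CPM in aged and 8.2 to 17.3 CPM in young Tregs, and for NK cell markers 15.4 to 24.6 CPM and 25.8 to 35.9 CPM, neither with overlap. Dendritic cell marker sums of 41.1 to 62.9 CPM and 55.8 to 74.8 CPM overlapped, as did CD8 T cell marker sums of 45.4 to 82.0 CPM and 48.8 to 92.7 CPM.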

How the data were processed

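RNA was reverse transcribed and amplified with a SMART-Seq v4 kit, which primes on poly(A) tails and adds no molecular identifiers. The authors deposited raw counts per Ensembl gene and library, in the layout of HTSeq-count without strand, and a series table whose signal values the authors had made by dividing each count by 1 size factor per library. Genome build mm10 is named in the submitters' processing notes. The aligner, annotation and read length are not given in the sources used here. The series table also holds the authors' log2 fold changes, standard errors, statistics and p-values, which were not used. Reads not on 1 gene (13.1% to 20.9%) were left out.

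Counts were tested by the quasi-likelihood method of edgeR 4.0.16 (R 4.3.3) after TMM normalization and filterByExpr, with Benjamini-Hochberg adjustment over 13904 genes. CPM are on the TMM scale, and p-values rest on 3 and 4 labelled biological replicates. A total of 3 counts, the limit of detection, is 0.22 to 0.279 CPM over unscaled gene counts (before TMM), for counting error only. Alternatives used DESeq2 1.42.0 and limma 3.58.1. Coordinates, exon lengths and copies came from GENCODE M21 (GRCm38). Copies are transcripts with at least 90% identity over 60 bases.

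Members and lists were chosen with earlier results of these data known. Named were mitochondrial protein and rRNA genes, called nuclear members, the nuclear member of each complex with the highest level per exon length, members with tissue isoforms, called genes of the pathway lists, Cyc1 and Cycs. Samples with the same replicate number did not deviate together, with correlations of -0.123, -0.344 and -0.148.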

Additional observations from a re-analysis of the deposited data

Results flagged for a closer look

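Among the young libraries, 2 values lay far from the other 3 of their group by Dixon's criterion, which by chance marks about 1 in 20 groups; 43 genes were examined. mt-Rnr2 stood at 2176 CPM in young replicate 1, against 779 to 1003 CPM in the others. Cox7a2l stood at 376.5 CPM in young replicate 2, against 288.3 to 295.8 CPM in the others.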

How the results depend on the processing

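Of the 40 genes compared across settings, none called in the main test changed direction under the 18 alternatives. The median of the nuclear members, -0.02, ranged from -0.10 to 0.03 over them. Of 714 comparisons of a gene with its main value, 622 kept their side of the threshold, 20 gained it and 72 lost it. The 10 mitochondrial genes called higher became 8 with GC content and length trends removed, 12 with DESeq2, 12 without a filter and 7 to 11 when each library was left out, and the median log2 fold change of the mitochondrial protein genes each fit tested, 1.22 over 10 genes, became 1.04 with these trends removed, 1.14 with library size only and 1.19 to 1.33 when each library was left out. Over the same 10 genes the latter range was 1.15 to 1.23, since some fits test other genes as well. The counts of 12 and 11 include mt-Atp8, which the main test left out for few counts. The 11 came without aged replicate 2, where mt-Atp8 entered through its counts in the other aged libraries, and is no separate support. Nuclear members called lower, 1 in the main test, were 5 with DESeq2, 7 with the trends removed, 2 with limma voom, 0 with library size only, 0 without a filter and 0 to 2 when each library was left out. Nuclear members called higher, 0 in the main test, were 1 with DESeq2, 1 with the trends removed, 1 with RLE, 1 with at least 10 counts in every library and 0 to 2 when each library was left out. With aged replicate 1 and young replicate 1 both left out, chosen after seeing the data, 10 mitochondrial genes were higher, and 1 nuclear member was higher and 2 lower. The replicate numbers do not pair the samples. With the replicate number as a block, 292 genes were called in all, with 3 mitochondrial genes higher, 0 nuclear members higher and 0 lower. The cause of these shifts was not tested. Library size only moved the median of all genes from 0.02 to -0.05. mt-Nd3, mt-Nd4l and mt-Atp8 had too few counts for the main test and the part of depth in this was not tested.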
